A study of Homo sapiens with 8 samples.

Results

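NKG2D ligand genes encode stress-induced surface proteins that mark a cell for attack by lymphocytes. The 5 genes described here are MICA, MICB, ULBP1, ULBP2 and ULBP3, chosen by symbol as ligand genes known to respond to deacetylase inhibitors and DNA damage, out of 58884 gene identifiers in the table of counts. They were measured by sequencing of total RNA, after depletion of ribosomal RNA, in U87 cells, an established human glioblastoma line. There were 4 groups of 2 libraries: cells kept long-term on AsiDNA and then given 1 µM belinostat for 24 h (the combination), cells given the same belinostat treatment without AsiDNA, cells kept long-term on AsiDNA alone, and cells given the solvent DMSO. AsiDNA is an oligonucleotide decoy, a piece of double-stranded DNA whose end looks like a break to repair enzymes, and belinostat inhibits histone deacetylases. The dose and duration of AsiDNA are not stated in the labels.

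NKG2D, encoded by KLRK1, is an activating receptor of natural killer (NK) cells and of cytotoxic T cells. Its ligands are scarce on most healthy cells, and DNA damage signalling through the kinases ATM and ATR is known to raise them. MICA and MICB are transmembrane relatives of the MHC class I molecules, whereas most ULBP proteins are held in the membrane by a lipid (GPI) anchor. Deacetylase inhibitors are known to raise ligand transcripts in several tumour cell types, and proteases can cut ligands off the surface. The counts measure RNA and not surface protein.

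The libraries held 6057394 to 9699637 counts, so that 3 counts equalled 0.309 to 0.495 CPM (counts scaled to the library total). The DMSO libraries stood apart from each other more than the replicates of the other groups did: the chi-square per degree of freedom between replicates was 4.05 in the combination, 3.69 with belinostat, 1.85 with AsiDNA and 24.24 with DMSO. The nuclear RNAs MALAT1 and NEAT1 took 2.061% to 3.119% of counts in the combination, 12.17% to 13.389% with belinostat, 0.688% to 0.753% with AsiDNA and 0.911% to 2.815% with DMSO. Among markers of the labelled brain tumour line, VIM, CD44 and TNC were abundant in all libraries (at least 1370 CPM each, with the TMM scaling described below). SOX2 had no count, and GFAP, S100B and AQP4 had at most 5 counts in any library. Of 13 NK and T cell markers, GZMB, NKG7, CD3D, PRF1 and CD3E had no count in any library, KLRK1 had at most 2 counts, and the summed level of the list was 1.08 to 1.87 CPM in the combination, 1.7 to 1.82 CPM with belinostat, 1.24 to 1.49 CPM with AsiDNA and 1.96 to 2.28 CPM with DMSO. Nothing in the labels ties the replicates to separate cultures, so p-values measure only the spread between these libraries, which may be technical.

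All 5 genes lie on chromosome 6 (GRCh38, GENCODE 29 coordinates). MICA (ENSG00000204520) spans chr6:31399784-31415315 and MICB (ENSG00000204516) spans chr6:31494881-31511124, both on the plus strand within the major histocompatibility complex. The ULBP genes form a cluster on the other arm, with ULBP2 (ENSG00000131015) at chr6:149942000-149949235, ULBP1 (ENSG00000111981) at chr6:149964007-149973710, both on the plus strand, and ULBP3 (ENSG00000131019) at chr6:150063150-150069095 on the minus strand. All are annotated as protein-coding.

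The promoter windows of 4 genes are shown because they hold the pair with the most alike sequence and opposite changes (MICA and MICB) and a pair of the ULBP cluster with different numbers of GC boxes, of which ULBP1 was called with belinostat and ULBP3 was not, a difference that was not itself tested. Each window runs from 250 bases before to 50 bases after a RefSeq start (GRCh38.p14), 5′ to 3′ on the gene's strand. Capitals mark GC boxes (GGGCGG or its reverse complement CCGCCC) and CCAAT boxes (CCAAT or its reverse complement ATTGG).
MICA, chr6:31403345-31403644, plus strand: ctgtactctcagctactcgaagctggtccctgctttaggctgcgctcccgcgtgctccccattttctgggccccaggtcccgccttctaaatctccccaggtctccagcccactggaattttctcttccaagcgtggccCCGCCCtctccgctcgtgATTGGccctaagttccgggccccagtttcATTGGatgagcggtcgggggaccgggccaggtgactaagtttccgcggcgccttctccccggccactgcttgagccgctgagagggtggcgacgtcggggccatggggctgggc
MICB, chr6:31497895-31498194, plus strand: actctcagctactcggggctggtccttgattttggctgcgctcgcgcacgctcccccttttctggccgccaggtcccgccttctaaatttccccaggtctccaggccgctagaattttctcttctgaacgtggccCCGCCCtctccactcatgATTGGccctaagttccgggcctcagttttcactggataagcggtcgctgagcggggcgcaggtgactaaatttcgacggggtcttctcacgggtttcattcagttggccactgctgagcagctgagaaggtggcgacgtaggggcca
ULBP1, chr6:149963693-149963992, plus strand: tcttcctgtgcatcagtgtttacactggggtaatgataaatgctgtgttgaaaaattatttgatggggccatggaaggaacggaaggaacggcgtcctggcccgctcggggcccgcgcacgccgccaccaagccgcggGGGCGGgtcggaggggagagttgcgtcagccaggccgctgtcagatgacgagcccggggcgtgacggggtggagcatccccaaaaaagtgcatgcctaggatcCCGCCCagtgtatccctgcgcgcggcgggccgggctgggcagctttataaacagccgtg
ULBP3, chr6:150069072-150069371, minus strand: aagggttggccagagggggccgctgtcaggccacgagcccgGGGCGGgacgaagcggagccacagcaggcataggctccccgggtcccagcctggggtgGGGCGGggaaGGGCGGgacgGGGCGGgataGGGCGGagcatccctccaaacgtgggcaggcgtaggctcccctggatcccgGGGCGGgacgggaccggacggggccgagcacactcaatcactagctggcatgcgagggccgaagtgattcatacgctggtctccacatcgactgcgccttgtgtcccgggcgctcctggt
For MICA and MICB the start used lies inside the span that GENCODE gives the gene, so each window covers 1 of several annotated starts. The ULBP1 window ends at 149963992, before the GENCODE start of that gene at 149964007. Over 284 aligned bases, 246 were identical between the MICA and MICB windows (86.6%), against 71.4% over 196 aligned bases for ULBP1 and ULBP3. MICA had 1 GC box and 2 CCAAT boxes, and MICB had 1 GC box at the matching place and 1 CCAAT box. The second CCAAT match of MICA, at positions -64 to -60 from the start, had no counterpart in MICB. ULBP3 had 6 GC boxes and ULBP1 had 2, and no CCAAT box was found in either window. The windows of ULBP2 and of the further ligand gene RAET1G each held 1 GC box and 1 CCAAT box. Of 35116 promoter windows of this length in the RefSeq table, 15786 held a GC box and 12155 (34.6%) a CCAAT box, searched on both strands. The other motifs searched on both strands were an AP-1 site (TGANTCA, in 7.71% of windows), found in ULBP2 and ULBP3, a TATA box (TATAAA, in 11.5%), found in ULBP1 on both strands in overlapping positions after the start, and a CRE (TGACGTCA, in 1.85%), an E2F site (TTTCGCGC or TTTGGCGC, in 1.15%) and a heat shock element (in 0.49%), which were not found in these 5 windows. The TATA box matches of ULBP1 lie after the RefSeq start used but before the GENCODE start. All these motif matches describe letters and not bound sites.

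MICA was the most abundant of the 5 genes in every library and rose with belinostat, while MICB, the gene with the closest sequence, fell. Each pair of values below gives replicate 1 and replicate 2 in CPM scaled with TMM factors (trimmed mean of M values). Log2 fold changes are given ± standard error and come from edgeR's quasi-likelihood F-test over 14741 genes, with Benjamini-Hochberg adjustment and a call at an adjusted p under 0.05. All 5 genes passed the filter on low counts.

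MICA stood at 107 and 107 CPM in the combination, 105 and 93 CPM with belinostat, 35.7 and 35.5 CPM with AsiDNA, and 28.7 and 34.8 CPM with DMSO. All 4 libraries with belinostat lay above all 4 without it. The share of all tested genes that split this way was not counted, and 57.4% were called for belinostat over DMSO. A split of the libraries therefore does not set a gene apart, here or below. The means were 98.8 ± 8.25 CPM with belinostat and 31.7 ± 4.32 CPM with DMSO (SD, n = 2 each). Against DMSO, belinostat raised MICA 3.11-fold (log2 fold change 1.64 ± 0.14, edgeR adjusted p = 5.32e-07). In cells kept on AsiDNA the rise was 3-fold (1.59 ± 0.14, adjusted p = 1.48e-06, combination over AsiDNA). MICA ranked high but not at the extreme of the response, since 9.61% of tested genes had a larger log2 fold change for belinostat over DMSO and 6.36% for the combination over AsiDNA.

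MICB stood at 2.34 and 1.66 CPM in the combination, 1.64 and 2.71 CPM with belinostat, 9.9 and 9.02 CPM with AsiDNA, and 8.48 and 7.21 CPM with DMSO. These values rest on 13 to 16 counts per library with belinostat, alone or in the combination, and on 62 to 84 counts per library without it. The groups with and without belinostat did not overlap, a split whose share over all tested genes was not counted. With belinostat MICB fell to 0.27 of its DMSO level (log2 fold change -1.89 ± 0.32, edgeR adjusted p = 0.000242), and 3.48% of tested genes had a lower fold change. In the combination it fell to 0.209 of its level in AsiDNA cells (-2.26 ± 0.33, adjusted p = 0.000106), with 1.36% of tested genes lower. The ratio of MICA to MICB counts was 45.9 and 64.3 in the combination, 63.7 and 34.3 with belinostat, 3.61 and 3.94 with AsiDNA, and 3.38 and 4.82 with DMSO.

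The GPI-anchored ligands did not move as a block. ULBP1 stood at 3.17 and 4.23 CPM in the combination, 3.87 and 1.52 CPM with belinostat, 1.57 and 0.728 CPM with AsiDNA, and 1.11 and 0.682 CPM with DMSO. It was the scarcest of the 5 genes per length without belinostat, with 5 to 13 counts per library there and 9 to 33 with belinostat, and belinostat replicate 2 (1.52 CPM) lay below AsiDNA replicate 1 (1.57 CPM). ULBP1 rose 3.09-fold for belinostat over DMSO (1.63 ± 0.56, edgeR adjusted p = 0.0234) and 3.14-fold for the combination over AsiDNA (1.65 ± 0.55, adjusted p = 0.026). Without belinostat replicate 1 the belinostat value was 0.68 and was not called (adjusted p = 0.483). Without AsiDNA replicate 2, combination replicate 1 or combination replicate 2 the call for the combination over AsiDNA was lost too (1.24, 1.83 and 1.4 on the log2 scale).

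ULBP2 stood at 13.2 and 14.9 CPM in the combination, 13.8 and 11.2 CPM with belinostat, 8.81 and 10 CPM with AsiDNA, and 7.68 and 8.38 CPM with DMSO. All 4 libraries with belinostat lay above all 4 without it, with a smaller gap than for MICA. The share of tested genes with such a split was not counted. ULBP2 rose 1.57-fold for belinostat over DMSO (0.65 ± 0.21, edgeR adjusted p = 0.0172) and 1.49-fold for the combination over AsiDNA (0.58 ± 0.21, adjusted p = 0.0397). Of 17 alternative settings, 8 lost the first call and 12 the second, all with the same direction, among them DESeq2 (0.59 with an adjusted p of 0.133, and 0.56 with 0.164), leaving out belinostat replicate 1 (0.39) or either combination library (0.55) for the first, and leaving out any library other than DMSO for the second (0.46 to 0.67).

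ULBP3 stood at 6.01 and 8.45 CPM in the combination, 4.69 and 4.23 CPM with belinostat, 9.9 and 9.17 CPM with AsiDNA, and 8.59 and 5.07 CPM with DMSO. The belinostat libraries were the lowest and the AsiDNA libraries the highest, and the DMSO replicates differed by more than the gap between DMSO replicate 2 and belinostat. The log2 fold change was -0.6 ± 0.31 for belinostat over DMSO (95% interval -1.26 to 0.06, edgeR adjusted p = 0.108) and -0.39 ± 0.29 for the combination over AsiDNA (interval -1.01 to 0.23, adjusted p = 0.304), and neither was called. Without DMSO replicate 2 the first value was -0.96, and over the 17 alternative settings it ran from -0.96 to -0.18.

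**Figure D1:**
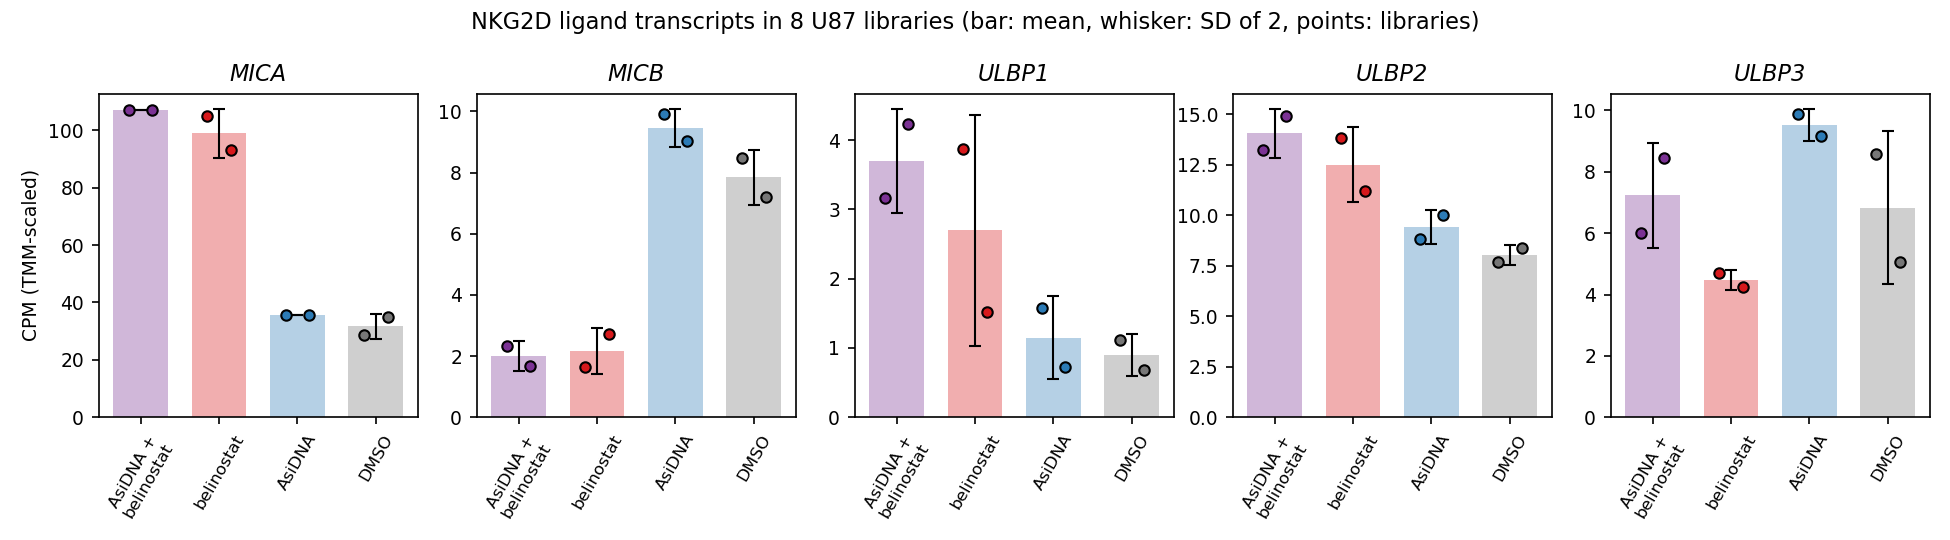
Levels of the 5 ligand genes in CPM (TMM-scaled, linear axis from 0, a separate scale for each gene) in the 4 groups. Bars are means, whiskers the SD of 2 libraries and points the libraries: MICA is near 100 CPM in the 4 libraries with belinostat, MICB is highest in the 4 without it, and the ULBP3 points of DMSO (8.59 and 5.07 CPM) lie between those of AsiDNA and those of belinostat.

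Counted together, 3 of the 5 genes were higher and 1 lower with belinostat over DMSO, where 57.4% of all tested genes were called (29.8% higher and 27.6% lower). In the combination over AsiDNA the counts were again 3 higher and 1 lower, with 42.9% of all genes called (21.7% higher and 21.2% lower). The combination over DMSO also gave 3 higher and 1 lower, with 48.1% of all genes called (24.3% higher and 23.7% lower). The median log2 fold change of the 5 genes was 0.65, 0.58 and 0.81 in these comparisons, against 0.06, 0.02 and -0.01 over all tested genes. With such a large share of the transcriptome called, 4 of 5 is not set apart from the background by its count. DESeq2 called 2 of the 5, MICA and MICB, for belinostat over DMSO and for the combination over AsiDNA, and all 4 for the combination over DMSO. MICA and MICB kept their direction and their call in these comparisons under all 17 alternative settings, with MICA at 1.45 to 1.89 and MICB at -2.5 to -1.61 on the log2 scale. Without MALAT1 and NEAT1 in the table, MICA stood at 1.58 and MICB at -1.95 for belinostat over DMSO.

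The combination over DMSO shares the DMSO libraries with belinostat over DMSO. Its values were 1.75 ± 0.14 for MICA (edgeR adjusted p = 5.7e-07), -1.99 ± 0.33 for MICB (adjusted p = 0.000258), 2.04 ± 0.55 for ULBP1 (adjusted p = 0.00737) and 0.81 ± 0.21 for ULBP2 (adjusted p = 0.00595). ULBP3 was at 0.1 ± 0.29 (adjusted p = 0.802), a direction that reversed to -0.08 when libraries were scaled by their size alone. Without combination replicate 2, ULBP1 stood at 1.77 and ULBP2 at 0.67, and neither was called.

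Long-term AsiDNA alone was not seen to change any of the 5 genes. AsiDNA over DMSO gave 0 called genes of the 5 by edgeR and 0 by DESeq2, none had an unadjusted p under 0.05, and 0.0204% of all tested genes were called (3 genes, all lower). MICA was at 0.17 ± 0.14 (95% interval -0.13 to 0.47, edgeR adjusted p = 0.624), so a rise beyond 0.47 on the log2 scale lay outside its interval. The values were 0.27 ± 0.26 for MICB (interval -0.3 to 0.84), 0.39 ± 0.63 for ULBP1 (interval -0.96 to 1.74), 0.23 ± 0.21 for ULBP2 (interval -0.23 to 0.69) and 0.49 ± 0.28 for ULBP3 (interval -0.12 to 1.09). All 5 values were positive, with a median of 0.27 against 0.03 over all tested genes. From 71.1% (MICA) to 95.3% (ULBP3) of tested genes had a lower value. The ULBP3 value depends on which DMSO library is used: without DMSO replicate 1 it was 0.93 and was called (adjusted p = 0.00828). Without that library 4955 of all tested genes were called in this comparison, and 62 without DMSO replicate 2.

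Adding AsiDNA to belinostat gave no called difference in the 5 genes either. For the combination over belinostat, edgeR and DESeq2 each called 0 of the 5, while edgeR called 43.4% of all tested genes (22% higher and 21.4% lower), and 1 of the 5 had an unadjusted p under 0.05. That gene was ULBP3, at 0.7 ± 0.31 (95% interval 0.02 to 1.38, edgeR adjusted p = 0.0865), and both combination libraries lay above both belinostat libraries. It was called when only these groups were fitted (0.69, adjusted p = 0.0368) and without either DMSO library (0.73 in both fits). MICA was at 0.11 ± 0.13 (interval -0.16 to 0.39), MICB at -0.1 ± 0.4 (interval -0.96 to 0.76), ULBP1 at 0.41 ± 0.49 (interval -0.65 to 1.47) and ULBP2 at 0.16 ± 0.21 (interval -0.29 to 0.6).

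The interaction asks whether the belinostat response differed between cells with and without AsiDNA. None of the 5 genes was called by edgeR or by DESeq2 and none had an unadjusted p under 0.05, with 0.00678% of all tested genes called by edgeR (1 gene). The differences between the 2 responses were -0.05 ± 0.19 on the log2 scale for MICA (95% interval -0.46 to 0.36), -0.37 ± 0.48 for MICB (interval -1.4 to 0.66), 0.02 ± 0.98 for ULBP1 (interval -2.09 to 2.14), -0.07 ± 0.3 for ULBP2 (interval -0.71 to 0.57) and 0.22 ± 0.42 for ULBP3 (interval -0.69 to 1.12). The interval of ULBP1 spans more than a 4-fold difference in either direction, and its counts summed over all libraries were the lowest of the 5.

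**Figure D2:**
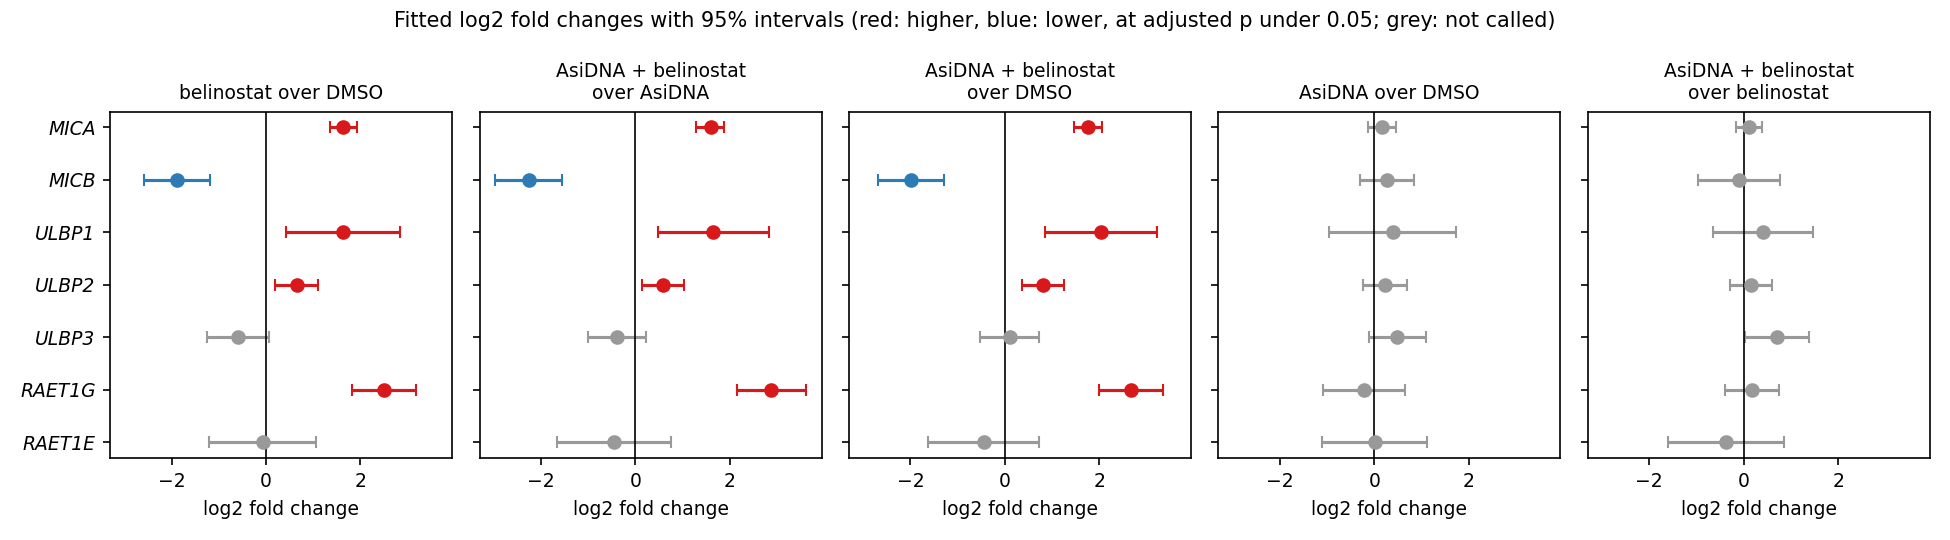
Fitted log2 fold changes (points) with 95% intervals (whiskers) of the 5 genes and of RAET1G and RAET1E in 5 comparisons. Red and blue points mark higher and lower calls (adjusted p under 0.05) and grey points are not called. The called points all lie in the 3 panels that compare libraries with belinostat to libraries without it.

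The receptor has further human ligands outside the 5 genes, RAET1E, RAET1G and RAET1L, which encode ULBP4, ULBP5 and ULBP6. RAET1G stood at 9.34 and 10.4 CPM in the combination, 8.92 and 8.64 CPM with belinostat, 1.09 and 1.6 CPM with AsiDNA, and 1.82 and 1.27 CPM with DMSO. Libraries with and without belinostat did not overlap, a split whose share over all tested genes was not counted. RAET1G rose by 2.5 ± 0.32 on the log2 scale for belinostat over DMSO (edgeR adjusted p = 1.9e-05) and by 2.88 ± 0.34 for the combination over AsiDNA (adjusted p = 1.75e-05), a larger fitted change than that of any of the 5 genes. RAET1E had 7 to 26 counts per library and stood at -0.07 ± 0.52 (adjusted p = 0.913) and -0.46 ± 0.57 (adjusted p = 0.55) in these comparisons. RAET1L had no count in any library.

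These genes resemble each other in sequence. The longest MICA and MICB transcripts were identical at 89.9% of 1381 aligned bases, and those of ULBP2 and RAET1L at 96.2% of 1275. Of all stretches of 50 bases in the exons of a gene, 2.43% for MICA, 2.86% for MICB, 6.85% for ULBP1, 32.2% for ULBP2 and 12.4% for ULBP3 also occur in another gene, as do 178 of 1483 for RAET1G. Stretches of 75 bases gave no match for MICA and MICB and 20.5% for ULBP2, most of them to RAET1L. RAET1E shared 33.3% of its stretches of 50 bases and 31.9% of those of 75 bases, nearly all with 1 other annotated gene, and RAET1L shared 31.5% and 19.6%. The values of ULBP2, RAET1E and RAET1L, the last with its count of 0, are therefore uncertain. The read length, the strandedness used in counting and the treatment of reads with several matches were not stated. HCP5, a noncoding gene annotated over part of MICA on the same strand, had 0 to 4 counts per library.

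Per length, the make-up of the ligand transcripts shifted with belinostat. In CPM per kilobase of exon (RPKM), the order in the combination was MICA (44.9 ± 0.0227), ULBP2 (10.4 ± 0.876), ULBP3 (7.32 ± 1.75), ULBP1 (1.18 ± 0.237) and MICB (0.715 ± 0.17), each the mean and SD of 2 libraries. With belinostat alone it was MICA (41.4 ± 3.46 RPKM), ULBP2 (9.27 ± 1.4), ULBP3 (4.52 ± 0.328), ULBP1 (0.859 ± 0.528) and MICB (0.778 ± 0.27), the last 2 of which overlapped. With AsiDNA it was MICA (14.9 ± 0.0699 RPKM), ULBP3 (9.65 ± 0.525), ULBP2 (6.99 ± 0.643), MICB (3.38 ± 0.222) and ULBP1 (0.366 ± 0.19). With DMSO it was MICA (13.3 ± 1.81 RPKM), ULBP3 (6.91 ± 2.52) and ULBP2 (5.95 ± 0.37), which overlapped, then MICB (2.81 ± 0.321) and ULBP1 (0.285 ± 0.0965). MICB thus stood above ULBP1 in all 4 libraries without belinostat.

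Summed over MICA, MICB and the 6 ULBP genes, the ligand level was 69.4 and 73.8 RPKM in the combination, 67.5 and 59.2 RPKM with belinostat, 36.8 and 37 RPKM with AsiDNA, and 31.9 and 30 RPKM with DMSO. MICA held 64.7% and 60.8% of that sum in the combination, 65% and 65.8% with belinostat, 40.7% and 40.2% with AsiDNA, and 37.7% and 48.6% with DMSO. MICB held 1.2% and 0.806% in the combination, 0.87% and 1.64% with belinostat, 9.62% and 8.71% with AsiDNA, and 9.51% and 8.58% with DMSO. The RAET1G share was 9.06% and 9.46% in the combination, 8.89% and 9.82% with belinostat, 1.99% and 2.91% with AsiDNA, and 3.84% and 2.84% with DMSO.

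**Figure D3:**
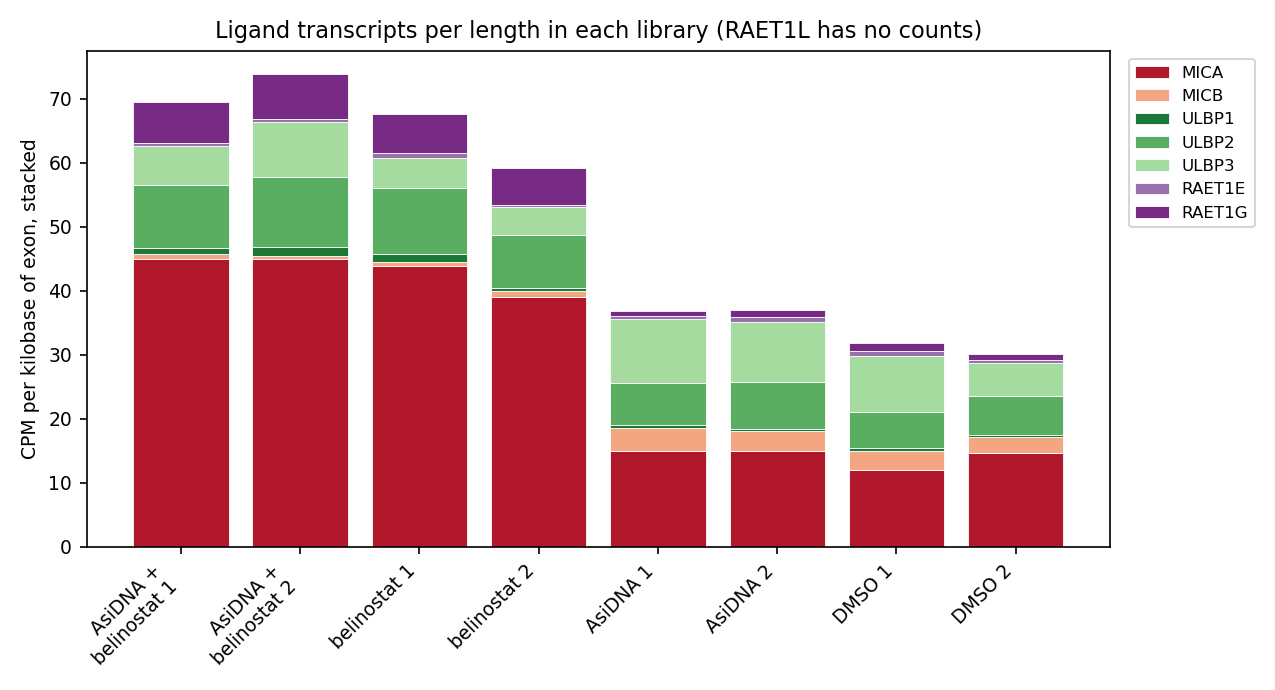
Stacked levels of 7 NKG2D ligand transcripts in each library, in CPM per kilobase of exon (linear axis from 0), with RAET1L at 0. The 4 libraries with belinostat reach 59.2 to 73.8 in sum, against 30 to 37 in the 4 without it, with wider MICA and RAET1G blocks and a thinner MICB block.

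Over the 8 libraries, log2 CPM of MICA and MICB had a Pearson correlation of -0.97, MICA and ULBP2 of 0.94 and MICA and ULBP1 of 0.85. The correlations of ULBP3 with the others lay between -0.51 and 0.53. The libraries fall into those with and without belinostat, so these values mainly restate that split and are given as a description. By the same measure, over 10425 protein-coding genes, the genes most like MICA were SMOX (0.998), EVI5L (0.997) and SSBP3 (0.997), and those most like MICB were SLF2 (0.996), ZNF33A (0.994) and CHAC2 (0.994). CYB5R4 (0.983), INPP5K (0.98) and ELOVL4 (0.974) were most like ULBP1, and MT1E (0.982), COG4 (0.981) and GUCY1B1 (0.979) most like ULBP2. ULBP3 was most like CAB39 (0.99), RPF2 (0.986) and RNF113A (0.984), whose log2 fold changes for belinostat over DMSO were -0.37, -0.44 and -0.25.

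The chromosomal neighbours of the ligand genes were counted at both loci, beside 29.8% of all tested genes higher and 27.6% lower for belinostat over DMSO. Of the 5 nearest protein-coding genes on each side of the MICA and MICB pair, 7 of 10 were tested, and for belinostat over DMSO 1 was higher and 1 lower. ATP6V1G2, a subunit of the vacuolar proton pump, was at 2.29 (edgeR adjusted p = 0.00148), and TCF19 at -1.26 (adjusted p = 8.26e-06). The class I genes next to MICA, HLA-B and HLA-C, stood at -0.219 (adjusted p = 0.121) and -0.267 (adjusted p = 0.0722). Around the ULBP cluster 8 of 10 neighbours were tested, of which 4 were lower and 4 not called for belinostat over DMSO. Those 4 were NUP43 (-0.641), PPP1R14C (-1.58), MTHFD1L (-1.13) and the scaffold gene AKAP12 (-2.61). In the combination over AsiDNA, the counts were 1 higher and 1 lower of 7 at the MICA and MICB pair, and 2 higher (PCMT1 and LRP11) and 3 lower of 8 at the ULBP cluster. Of all tested genes, 21.7% were higher and 21.2% lower in that comparison.

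**Figure D4:**
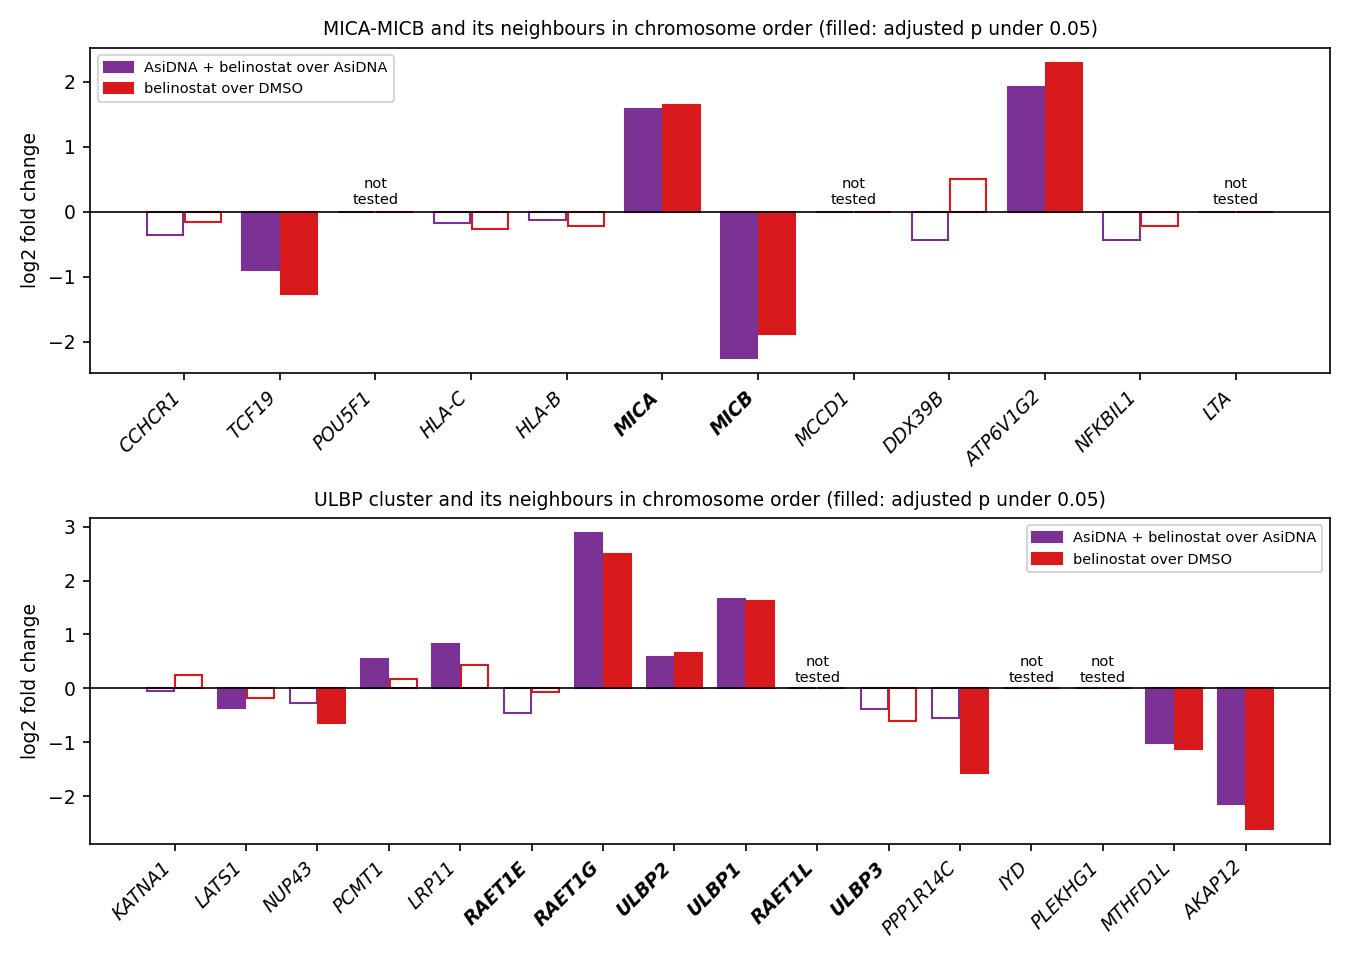
Log2 fold changes of the ligand genes (bold) and their protein-coding neighbours in chromosome order, for the combination over AsiDNA (purple) and belinostat over DMSO (red). Filled bars are called at an adjusted p under 0.05: MICA and MICB point in opposite directions side by side, and RAET1G, ULBP2 and ULBP1 rise between neighbours that are lower or not called for belinostat over DMSO.

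Among 7 tested genes for the release of ligands from the surface, 3 were higher and 2 lower for belinostat over DMSO, with a median log2 fold change of -0.09. The list had 2 higher and 1 lower for the combination over AsiDNA. Over all tested genes, 29.8% were higher and 27.6% lower in the first comparison, and 21.7% and 21.2% in the second. MMP14, a membrane-bound protease that can cut MICA, fell by 2.13 ± 0.13 for belinostat over DMSO (edgeR adjusted p = 6.8e-08) and by 1.36 ± 0.13 for the combination over AsiDNA (adjusted p = 3.15e-06). TIMP3, an inhibitor of such proteases, rose by 1.53 ± 0.16 and 1.71 ± 0.16. ADAM10, a further sheddase, was at 0.44 ± 0.14 (adjusted p = 0.0128) and 0.69 ± 0.14 (adjusted p = 0.00111), and ADAM17 at 0.29 ± 0.12 (adjusted p = 0.049) and 0.15 ± 0.12 (adjusted p = 0.33). The ADAM10 call for belinostat over DMSO was lost without either belinostat library (0.33 and 0.39) and without either combination library (0.35 in both fits), and the ADAM17 call under most alternatives.

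GPI transamidase subunits attach the lipid anchor that ULBP proteins carry. Of the 5 subunits, 1 was higher and 1 lower for belinostat over DMSO, and 4 were higher and 1 lower for the combination over AsiDNA. Over all tested genes, 29.8% were higher and 27.6% lower in the first comparison, and 21.7% and 21.2% in the second. PIGS was at 0.45 ± 0.13 (edgeR adjusted p = 0.0117) and 0.88 ± 0.13 (adjusted p = 0.000146) in these comparisons, GPAA1 at 0.3 ± 0.14 (adjusted p = 0.0758) and 0.78 ± 0.14 (adjusted p = 0.000442), and PIGU at -0.79 ± 0.15 (adjusted p = 0.000612) and -0.46 ± 0.15 (adjusted p = 0.0241). The first PIGS call was lost without either belinostat library (0.34 and 0.38) or either combination library (0.35), and the second PIGU call without either AsiDNA library (-0.55 and -0.37) or combination replicate 1 (-0.37).

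Of 16 transcription factors reported for ligand promoters, 3 were higher and 9 lower for belinostat over DMSO, with a median log2 fold change of -0.68, where 29.8% of all tested genes were higher and 27.6% lower and the median over all genes was 0.06. In the combination over AsiDNA 2 were higher and 10 lower, with a median of -0.63, against 21.7% higher, 21.2% lower and a median of 0.02 over all genes. E2F1 and E2F2, cell cycle factors, stood at -1.9 ± 0.13 and -2.53 ± 0.16 for belinostat over DMSO (edgeR adjusted p = 1.18e-07 and 6.8e-08), and NFKB1, a subunit of NF-kB, at -1.77 ± 0.15 (adjusted p = 5.37e-07). In the combination over AsiDNA, E2F1 was at -1.13 ± 0.13, E2F2 at -1.23 ± 0.14 and NFKB1 at -1.4 ± 0.14, all called. The stress factor XBP1 was at -1.56 ± 0.16 for belinostat over DMSO (adjusted p = 3.7e-06). The 3 higher factors in that comparison were DDIT3 (1.24 ± 0.21), STAT3 (0.77 ± 0.14) and RELA, a further subunit of NF-kB (0.72 ± 0.15). In the combination over AsiDNA the 2 higher factors were STAT3 (0.77 ± 0.14) and RELA (0.67 ± 0.15).

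Of 5 DNA damage kinases, 2 were higher and 2 lower for belinostat over DMSO, and 1 was lower and 4 not called for the combination over AsiDNA. For this list and the 2 that follow, the shares over all tested genes were 29.8% higher and 27.6% lower in the first comparison. In the second they were 21.7% and 21.2%. ATM was at 0.39 ± 0.13 (edgeR adjusted p = 0.0184) and -0.16 ± 0.13 (adjusted p = 0.338), and ATR at -0.28 ± 0.11 (adjusted p = 0.0502) and -0.29 ± 0.12 (adjusted p = 0.0559). The ATM call was lost without belinostat replicate 2 (0.19) and without 4 of the other libraries in turn. CHEK1 was lower in both comparisons, at -1.71 ± 0.19 and -1.12 ± 0.18 (adjusted p = 7.8e-06 and 0.000283). PRKDC, the other kinase called lower for belinostat over DMSO, was at -0.54 ± 0.14 (adjusted p = 0.00464) and -0.24 ± 0.14 (adjusted p = 0.191). CHEK2 was at 0.6 ± 0.18 (adjusted p = 0.0112) and -0.15 ± 0.19 (adjusted p = 0.545). Among the class I deacetylases, which belinostat inhibits, HDAC3, a reported repressor of ULBP genes, rose by 1.61 ± 0.12 for belinostat over DMSO (adjusted p = 2.9e-07) and by 1.36 ± 0.12 for the combination over AsiDNA (adjusted p = 2.1e-06). HDAC8 rose as well, by 1.18 ± 0.2 and 0.87 ± 0.21 (adjusted p = 0.000204 and 0.00461), and the other 2 of the 4 were not called. The second HDAC8 call was lost without AsiDNA replicate 1 (0.78). Of 5 genes that act on ligand transcripts, 1 was higher and 3 lower for belinostat over DMSO, and 3 were lower and 2 not called for the combination over AsiDNA. The microRNA-processing enzyme DROSHA was at -1.06 ± 0.14 and -1.12 ± 0.15, and the RNA-binding gene IGF2BP3 at -0.33 ± 0.12 and -0.54 ± 0.12, all called by edgeR. The first IGF2BP3 call was lost without either AsiDNA library (-0.34) or belinostat replicate 1 (-0.38). RBM4, a further RNA-binding gene, was the higher one, at 1.06 ± 0.22 for belinostat over DMSO (adjusted p = 0.00105). For the combination over AsiDNA it was at 0.24 ± 0.24 (adjusted p = 0.449).

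Of 7 tested genes for ligands of other activating NK cell receptors, 3 were lower and 4 not called for belinostat over DMSO, and 1 was higher and 3 lower for the combination over AsiDNA. For this list and the 2 that follow, the shares over all tested genes were 29.8% higher and 27.6% lower in the first comparison. In the second they were 21.7% and 21.2%. PVR, a ligand of CD226, was at -0.7 ± 0.13 (edgeR adjusted p = 0.000632) and -0.39 ± 0.13 (adjusted p = 0.0294), and CD58, the ligand of CD2, at -0.67 ± 0.18 (adjusted p = 0.00605) and -1.06 ± 0.19 (adjusted p = 0.00059). NCR3LG1, a ligand of NKp30, was at -0.62 ± 0.25 (adjusted p = 0.0463) and -1.77 ± 0.29 (adjusted p = 0.000261), and its first call was lost without belinostat replicate 1 (-0.28) or either AsiDNA library (-0.63). NECTIN2 rose by 0.82 ± 0.14 for the combination over AsiDNA (adjusted p = 0.000412). Of 5 tested inhibitory ligands, 2 were higher and 2 lower for belinostat over DMSO, and 1 was lower and 4 not called for the combination over AsiDNA. The PVR call for the combination over AsiDNA was lost without any 1 of the 4 libraries compared (-0.47 to -0.35). CLEC2D, the ligand of the inhibitory receptor KLRB1, rose by 2.12 ± 0.3 for belinostat over DMSO (adjusted p = 5.29e-05). For the combination over AsiDNA it was at 0.85 ± 0.35 (adjusted p = 0.0674). HLA-E, the ligand of NKG2A, stood at -0.57 ± 0.14 (adjusted p = 0.00334) and -0.12 ± 0.14 (adjusted p = 0.509) in these comparisons. Of 3 tested death receptors, 1 was higher and 2 lower for belinostat over DMSO, and 1 was lower and 2 not called for the combination over AsiDNA. FAS, a receptor through which lymphocytes can kill, was at -0.59 ± 0.21 (adjusted p = 0.0312) and -1.29 ± 0.22 (adjusted p = 0.000315), and its first call was lost without belinostat replicate 2 (-0.53). TNFRSF10B was the higher one, at 0.46 ± 0.11 (adjusted p = 0.00329) and 0.24 ± 0.11 (adjusted p = 0.108). TNFRSF1A was at -0.44 ± 0.15 (adjusted p = 0.0247) and 0.11 ± 0.15 (adjusted p = 0.568).

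**Figure D5:**
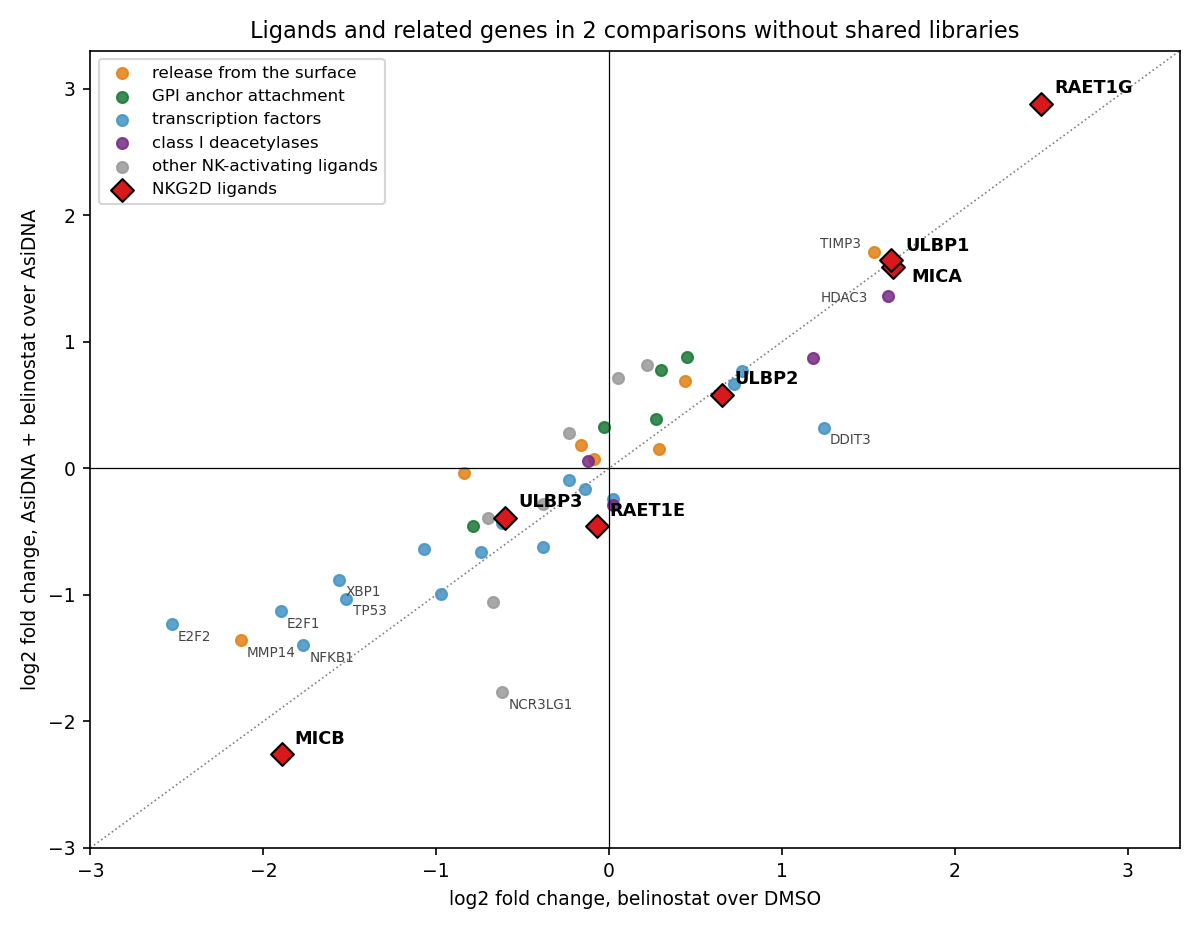
Log2 fold changes of NKG2D ligands (red diamonds) and of related gene lists (coloured points) for belinostat over DMSO (x axis) and for the combination over AsiDNA (y axis), comparisons that share no library. The dotted line marks equal values: RAET1G, ULBP1, MICA and ULBP2 lie at the upper right, with TIMP3 and HDAC3 near MICA, and MICB lies at the lower left near the E2F, NFKB1 and MMP14 points.

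Markers of other cell types moved with belinostat as well. The sums below are in CPM scaled to the library total, without TMM factors. The 5 neuron markers summed to 108 to 113 CPM in the combination, 144 to 154 CPM with belinostat, 43 to 48.1 CPM with AsiDNA and 43.3 to 67.5 CPM with DMSO. Most of that sum was SNAP25, with STMN2 at 0 and RBFOX3 at 1 count at most. The 4 endothelial markers, nearly all PECAM1 with CDH5 and CLDN5 at 0, summed to 12.6 to 15.5 CPM in the combination, 19 to 22.7 CPM with belinostat, 3.85 to 6.26 CPM with AsiDNA and 5.26 to 5.75 CPM with DMSO. The 6 myeloid markers, mostly CSF1R with AIF1 at 0, summed to 5.76 to 6 CPM in the combination, 6.33 to 6.77 CPM with belinostat, 16.5 to 17.6 CPM with AsiDNA and 21.2 to 21.6 CPM with DMSO. The 10 astrocyte and glioma markers summed to 9120 to 9130 CPM in the combination, 4890 to 5430 CPM with belinostat, 10600 to 10700 CPM with AsiDNA and 8520 to 10500 CPM with DMSO. VIM carried most of the drop in that sum. In TMM-scaled CPM it stood at 1480 and 1370 with belinostat and 5520 and 3490 with DMSO. For belinostat over DMSO, 2 of the 6 tested genes of the list were higher (NES and CHI3L1), 1 was lower (VIM) and 3 were not called. Over all tested genes, 29.8% were higher and 27.6% lower in that comparison. All libraries are labelled as U87 cells, so the sums describe transcripts of marker genes and not numbers of other cell types. The part of these shifts in the ligand values was not tested. In bulk RNA a change in all cells and a change in some of them cannot be told apart.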

How the data were processed

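Total RNA of U87 cells was sequenced after ribosomal RNA depletion with a stranded kit, per the labels' protocols. The submitters' processing notes name cutadapt 1.16, STAR 2.7.0 and featureCounts 1.6.3, with the build GRCh38. The deposited values are raw counts per gene, as whole numbers. The annotation release and counting settings were not stated.

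The 8 libraries (6057394 to 9699637 counts) formed 4 groups of 2 by their titles. Names were found for 58876 of 58884 identifiers. edgeR 4.0.16 (R 4.3.3) was run with filterByExpr, TMM factors and 1 coefficient per group, leaving 14741 genes, 4 residual degrees of freedom and a prior of 9.56. The quasi-likelihood F-test gave 5 pairwise comparisons and the interaction, adjusted over all tested genes (Benjamini-Hochberg). Lengths are exon unions of GENCODE 29, and promoters are RefSeq windows, aligned with Biopython 1.88. The steps were tested on simulated data.

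The 5 genes and all lists were chosen with earlier results of these data known. From each related list the text names members among the 4 with the smallest adjusted p for belinostat over DMSO or the combination over AsiDNA, and always HDAC3, ADAM10, ADAM17, ATM and ATR. The transcription factors called higher in these comparisons are named as well. For each ligand gene it names the 3 most correlated protein-coding genes (mean log2 CPM of at least 2, prior count 2), and for each locus the nearest protein-coding genes. Alternatives were RLE factors, library size alone, DESeq2 1.42.0, no filter, a filter of 1 CPM, a fit of the compared groups alone, a replicate block, a threshold of 0.01, no MALAT1 and NEAT1, and leaving out each library. The differences between replicates 1 and 2 correlated between groups at -0.37 to 0.23 over 8142 genes, without a common sign. The lowest value was DMSO with the combination and the highest DMSO with belinostat. A batch shared between groups was not tested.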

Additional observations from a re-analysis of the deposited data

How the results depend on the processing

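Of 499 recomputed values of the 5 genes over the 6 comparisons, 438 kept their direction and call, 31 lost the call, 6 gained one and 24 reversed. The count of the 5 genes called was 2 for belinostat over DMSO under DESeq2, with only the groups compared and at an adjusted p under 0.01, and 2 to 5 when 1 library was left out. For the combination over AsiDNA it was 2 under DESeq2 and at an adjusted p under 0.01, and 2 to 4 without 1 library. It was 2 to 4 without 1 library for the combination over DMSO (2 without combination replicate 2), 0 to 1 for AsiDNA over DMSO, and 1 for the combination over belinostat with only the groups compared, and 0 to 1 without 1 library. Counts over all genes for AsiDNA over DMSO were 3 as reported, 1 with library size alone, 28 under DESeq2, 520 without a filter, 0 with only the groups compared and at an adjusted p under 0.01, and 0 to 4955 without 1 library. For the interaction they were 1 as reported, 10 with RLE factors, 157 with library size alone, 679 under DESeq2, 1549 without a filter, 351 with 1 CPM in 2 libraries, 0 at an adjusted p under 0.01, and 0 to 5358 without 1 library. For the combination over belinostat, 6398 became 3804 at an adjusted p under 0.01 and 3142 to 8477 without 1 library, and for the combination over AsiDNA 6319 became 4102 to 8247 without 1 library. With a replicate block these counts were 5 for AsiDNA over DMSO and 19 for the interaction, and of the 5 genes ULBP2 lost its call in the combination over AsiDNA (adjusted p = 0.0515). Reversals were all in values that were not called. Scaling by library size moved the median of all genes to -0.2 for the combination over DMSO and turned ULBP3 to -0.08 there. For the interaction, MICA turned to 0.05 and ULBP2 to 0.04 without a filter, and to 0.02 and 0 with 1 CPM in 2 libraries. Without 1 library the ranges were RAET1E -0.82 to 0.47 for belinostat over DMSO; ULBP1 -0.28 to 0.81 for AsiDNA over DMSO; ULBP3 -0.23 to 0.55 for the combination over DMSO; RAET1E -0.84 to 0.01 for the combination over AsiDNA; MICB -0.4 to 0.32 for the combination over belinostat; MICA -0.18 to 0.11, MICB -0.66 to 0.06, ULBP1 -0.38 to 0.97, ULBP2 -0.15 to 0.18, ULBP3 -0.2 to 0.57 in the interaction. The cause of these changes was not tested. ULBP1 had as few as 5 counts in a library, which limits its precision.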
